A study of Mus musculus with 10 samples.

Results

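The genes described here build the acidic interior of the lysosome and its digestive content. They were taken from a list of 35 symbols, with the cathepsins left out. All 35 were found among the 32285 genes of the deposited count matrices. The list was chosen with earlier results of these data known, so its counts beside the shares of all genes are descriptions. The list holds 16 genes of the vacuolar proton pump (V-ATPase), 5 genes of lysosomal membrane proteins, 13 genes of hydrolases or other luminal proteins, and the regulator Tfeb. Of the pump genes, 6 encode subunits of the membrane sector V0, 8 encode subunits of the catalytic sector V1, and 2 are accessory genes.

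The V-ATPase splits ATP in its V1 sector and drives protons through the V0 sector into the lysosome. The low pH that results is needed by the hydrolases, which break down proteins, glycans and lipids, and heavily glycosylated membrane proteins line the organelle. Many of these genes carry a short E-box in the promoter that is bound by TFEB and its relatives, which enter the nucleus when lysosomal breakdown is in demand. Phagocytes take up particles and dead cells and depend on this machinery to degrade them.

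Messenger RNA and hashtags, which are antibodies bearing DNA barcodes, were counted in single cells of female C57BL/6Rj mice. LysoDCs, lysozyme-expressing phagocytes of Peyer's patches, and conventional type 2 dendritic cells (cDC2s) came from untreated animals after enrichment for CD11c. Blood cells with high CD115 came from other animals, injected intravenously with liposomes loaded with clodronate 9 days earlier. These were Ly6C+ monocytes, CD43+ monocytes and cells lacking Ly6C and CD43 (DN blood cells). In dataset 2 the DN blood cells were sorted as CCR2+ and CCR2- fractions that carried the same hashtag, so its DN sum mixes both in unknown proportion, while the labels of dataset 1 name no such split. For dataset 1, Peyer's patches of 30 mice and blood of 20 were pooled and cells were tagged after sorting. Dataset 2 used 20 and 18 mice and was tagged before sorting. Clodronate kills phagocytes that engulf it, and the tissue of origin and this treatment cannot be told apart in any comparison of LysoDCs with blood.

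Each population was summed over its cells within a dataset, which gave 2 sums for each of the 4 populations present in both datasets. The sums held 663 to 4971 cells and 2409391 to 35505429 UMIs, the distinct molecules counted, and levels are given as counts per 1000000 UMIs (CPM). LysoDC cells were deeper, with a median of 8999 to 14279 UMIs over the dataset 2 cells and the 4 subsets of dataset 1, against 2312 to 5920 in blood populations. The 4 LysoDC hashtags of dataset 2 gave 4, 213, 143 and 321 cells, and could not be assigned to subsets, since the same hashtags served all 4, against 736, 768, 574 and 841 cells when hashtags were called after scaling to their own background. LysoDC markers (5 of 5 detected in every sum) reached 30245 and 28470 CPM in LysoDCs. In blood the same markers summed to 1657 to 1850 CPM in dataset 1 and to 226 to 387 CPM in dataset 2. Markers of Ly6C-high monocytes reached 4191 and 3474 CPM in Ly6C+ monocytes, and those of CD43-high monocytes 2330 and 2378 CPM in CD43+ monocytes. DN blood cells held 986 and 1460 CPM of the 4 cDC2 markers, more than the 197 and 188 CPM of the Peyer's patch immature and maturing cDC2s, in which all 4 were detected.

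Promoter windows of 300 bases, from 250 before to 50 after the annotated start, were matched by symbol for 29 of the 35 genes in RefSeq sequence of build GRCm38.p6. Atp6v1h, Atp6v0d2, Atp6v1b2, Asah1, Atp6v1c1 and Atp6v1g1 were not matched. The E-box core CACGTG, which reads the same on both strands, was found in the windows of 9 of these 29 genes, while 8.09% of all 27025 genes in the same table hold it. The longer form TCACGTGA, each copy of which contains the core, was found in 5 of the 29, against 1.12% of all genes. The sequences below show the part of each window around its cores, 5′ to 3′ on the gene's own strand with the core in capitals. They are printed to show where the core lies in genes whose levels follow, and a link between core and level was not tested. Each holds up to 20 bases on either side of the cores and ends at most 9 bases downstream of the start.
Lamp1 (chr8:13159080-13159170, + strand): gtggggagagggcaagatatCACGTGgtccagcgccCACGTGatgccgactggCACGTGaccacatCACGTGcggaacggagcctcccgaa
Atp6v0b (chr4:117887322-117887385, - strand): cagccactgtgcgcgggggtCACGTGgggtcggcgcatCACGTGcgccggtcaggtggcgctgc
Mcoln1 (chr8:3500428-3500499, + strand): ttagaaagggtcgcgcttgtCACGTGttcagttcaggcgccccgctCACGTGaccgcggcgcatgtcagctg
Gla (chrX:134601174-134601252, - strand): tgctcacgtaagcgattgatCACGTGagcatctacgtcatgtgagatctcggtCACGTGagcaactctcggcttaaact
Glb1 (chr9:114401010-114401055, + strand): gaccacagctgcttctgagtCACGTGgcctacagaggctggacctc
Gaa (chr11:119267803-119267848, + strand): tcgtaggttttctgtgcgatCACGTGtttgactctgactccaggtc
Atp6v1a (chr16:44139365-44139410, - strand): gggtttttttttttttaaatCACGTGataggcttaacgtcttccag
Atp6v0d1 (chr8:105566055-105566087, - strand): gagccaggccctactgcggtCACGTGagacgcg
Atp6v0e (chr17:26676379-26676405, + strand): cggggctttagcgcgccgatCACGTGa

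Lamp1 held 4 cores, the first beginning 61 and the last 15 bases upstream of its start, more than any of the other 8 genes. Atp6v0b, Mcoln1 and Gla held 2 each, and Glb1, Gaa, Atp6v1a, Atp6v0d1 and Atp6v0e held 1. In Atp6v0d1 the core began 3 bases upstream of the start and in Atp6v0e 3 bases downstream of it. These matches are descriptions of sequence, and binding was not measured.

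**Figure D1:**
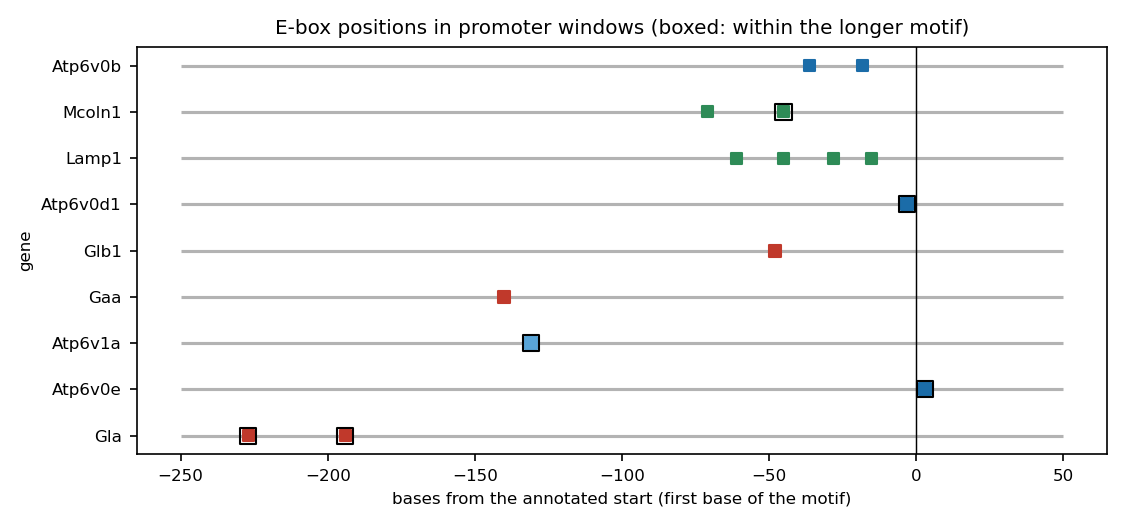
Positions of the E-box core in the promoter windows of the 9 genes that hold it, in bases from the annotated start (x axis), 1 line per gene, with V-ATPase genes in blue, membrane genes in green and hydrolase genes in red. Boxed squares lie within the longer motif, and the cores of Gaa, Atp6v1a and Gla lie farther upstream than those of the other 6 genes.

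The summed transcripts of the proton pump genes were higher in LysoDCs than in either monocyte population. Summed over the 16 V-ATPase genes, LysoDCs held 6323 and 5281 CPM in datasets 1 and 2. Ly6C+ monocytes held 3379 and 3053, CD43+ monocytes 3176 and 2691, and DN blood cells 2732 and 2156 CPM. The 2 LysoDC sums were above all 6 blood sums. Of the LysoDC CPM, Atp6v0b gave 1582 and 1158, and Atp6v0c gave 1880 and 1505. Not every pump gene followed the sum, and 12 of the 16 were called higher against monocytes in the test below. Atp6v1b2 and Atp6ap1 were below the mean CPM of both monocyte types in both datasets, and Atp6v0d1 was nearly level with it. The sum over the 5 membrane genes gave the same order of populations as the pump sum. It was 2940 and 2543 CPM in LysoDCs and lowest, at 757 CPM, in DN blood cells of dataset 2. Lamp1 alone gave 2254 and 1836 of these CPM in LysoDCs. Scarb2 was also above the mean of both monocyte types in both datasets, whereas Lamp2, Cd68 and Mcoln1 were below it. The sum over the 13 hydrolase or luminal genes did not set LysoDCs above all blood sums. LysoDCs held 4685 and 4509 CPM and Ly6C+ monocytes 5036 and 3994. Psap alone gave 3264 and 2480 of these CPM in Ly6C+ monocytes, and 2557 and 2440 CPM in LysoDCs. Per cell, the V-ATPase share of UMIs had a median of 0.595% to 0.634% over the 4 LysoDC subsets of dataset 1 and 0.525% in LysoDCs of dataset 2. The corresponding medians in blood populations were 0.267% to 0.330% in dataset 1 and 0.212% to 0.296% in dataset 2.

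**Figure D2:**
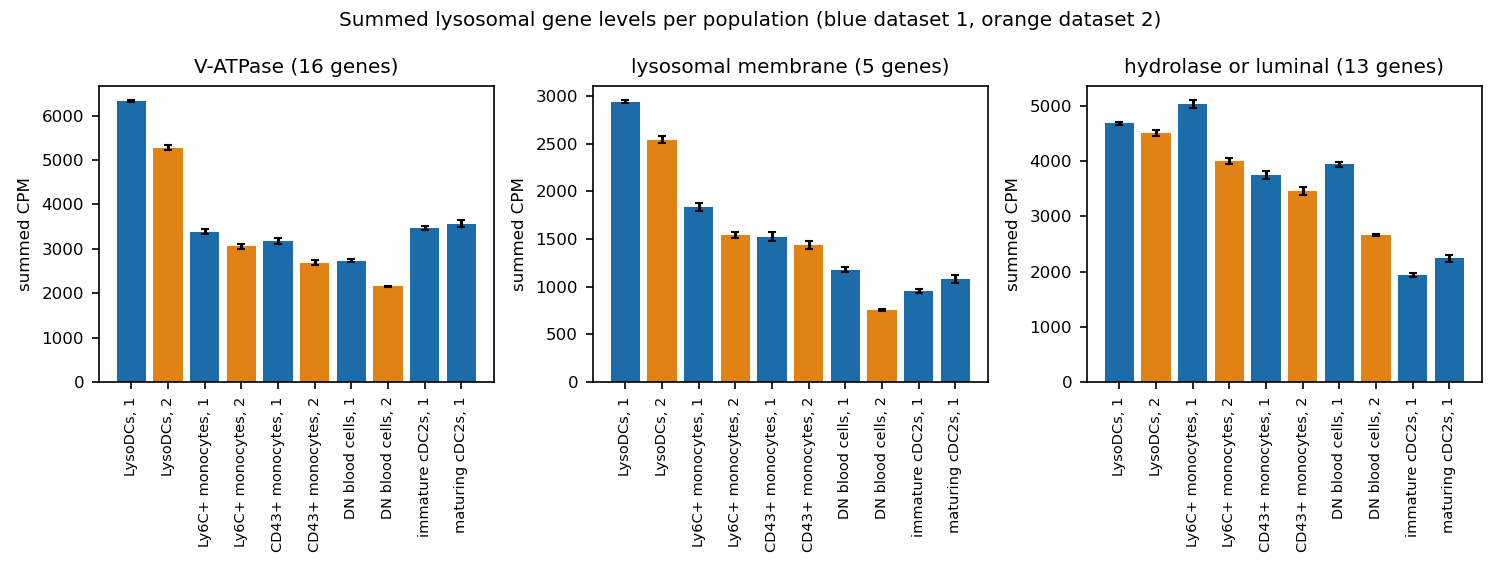
Summed CPM (y axis) of V-ATPase, lysosomal membrane and hydrolase or luminal genes in each sum of cells, with dataset 1 in blue, dataset 2 in orange and 95% Poisson intervals that cover counting error only. V-ATPase sums of LysoDCs (6323 and 5281 CPM) stand above all others, whereas their hydrolase sums (4685 and 4509 CPM) overlap those of Ly6C+ monocytes.

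Against monocytes, 23 of the 35 genes were higher in LysoDCs, 3 were lower and 9 did not pass the test, where 29.9% of all genes tested were higher and 27.4% lower. The test was edgeR's quasi-likelihood test on the summed counts with Benjamini-Hochberg adjustment over 11458 genes at 0.05, and every p rests on 2 pools of mice per population. The median log2 fold change was 0.62 over the 35 genes and 0.01 over all genes. Of the V-ATPase genes 12 of 16 were higher and 0 lower, also at an unadjusted p under 0.05 and in DESeq2, while total UMI scaling gave 11 higher and 1 lower. Without the LysoDCs of dataset 1, 8 pump genes were higher and 0 lower. Of the hydrolase genes 9 of 13 were higher and 1 lower, and of the membrane genes 2 of 5 were higher and 1 lower. Scaling to total UMIs gave 20 higher and 5 lower members. It moved the median of all genes to -0.18 and the share of higher genes among all calls from 52.1% to 40.7%. B cell markers summed to 215 and 202 CPM in LysoDCs and 20.6 to 52.4 CPM in blood, and their part was not tested. With 1 sum left out there were 16 to 23 higher members.

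Among the pump genes, the largest change in a well-detected gene was that of Atp6ap2, the (pro)renin receptor and an accessory V-ATPase protein (chrX:12587801-12617049, + strand, GRCm38). It stood at 368 and 328 CPM in LysoDCs in datasets 1 and 2, at 86.6 and 84.5 in Ly6C+ monocytes, at 64.7 and 62.0 in CD43+ monocytes, and at 74.2 and 75.4 in DN blood cells. The LysoDC values were apart from all 6 blood values, and the log2 fold change against monocytes was 2.43 ± 0.12 (SE, adjusted p = 8.7e-08). Atp6v0c, which encodes the proteolipid of the proton-conducting ring (chr17:24163866-24169702, - strand), stood at 1880.0 and 1505 CPM in LysoDCs, 747 and 651 in Ly6C+ monocytes, 426 and 340 in CD43+ monocytes, and 491 and 338 in DN blood cells. Its log2 fold change was 1.89 ± 0.13 (adjusted p = 6.43e-07), and again no blood sum reached a LysoDC sum. The other ring proteolipid gene, Atp6v0b, rose by 1.27 on the log2 scale (adjusted p = 6.87e-06). In the V1 sector, Atp6v1g1 (log2 fold change 1.23), Atp6v1d (1.22) and Atp6v1c1 (1.02), which encode stalk subunits, were the genes with the largest rises. Atp6v1a, the catalytic subunit, rose by 0.64, Atp6v1f by 0.57 and Atp6v1h by 0.44, while Atp6v1b2 (0.02) and Atp6v1e1 (0.26) did not pass. Accessory gene Atp6ap1 had a log2 fold change of -0.20 and did not pass, unlike Atp6ap2. Atp6v0a1 and Atp6v0e rose by 0.86 and 0.55. The call of Atp6v1h was lost with total UMI scaling and with no replicate block. Those of Atp6v1a, Atp6v1f, Atp6v1h and Atp6v0e were lost without the LysoDCs of dataset 1.

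The d subunit, which joins the V0 sector to the central stalk, is encoded by Atp6v0d1 and Atp6v0d2, and of these only Atp6v0d2 was called against monocytes. Atp6v0d1 stood at 96.9 and 94.0 CPM in LysoDCs, 86.9 and 93.5 in Ly6C+ monocytes, 102 and 95.1 in CD43+ monocytes, and 63.9 and 62.5 in DN blood cells. LysoDC and monocyte values overlapped, with a log2 fold change of 0.20 ± 0.12 (adjusted p = 0.162). Atp6v0d2, the isoform known from osteoclasts and macrophages (chr4:19876841-19922605, - strand), was sparse. It reached 6.37 and 8.46 CPM in LysoDCs, 1.46 and 0 in Ly6C+ monocytes, 2.49 and 1.16 in CD43+ monocytes, and 1.30 and 0.208 in DN blood cells. The log2 fold change was 2.92 ± 0.67 (adjusted p = 0.00769), and the CPM ratio to the mean of both monocyte types was 3.23 in dataset 1 and 14.6 in dataset 2. The 0 UMIs of Ly6C+ monocytes in dataset 2 came from 866 cells and allow a level of up to 0.577 CPM (3 UMIs). The blood sums of dataset 1 also held more LysoDC marker UMIs than those of dataset 2, as given above, and the part of those UMIs in the blood levels was not tested.

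In the lysosomal membrane, Scarb2 and Lamp1 rose in LysoDCs, while a fall of Lamp2 was called near the threshold. Scarb2, the receptor that carries glucocerebrosidase to lysosomes, stood at 245 and 219 CPM in LysoDCs and between 54.2 and 99.5 CPM in all 6 blood sums. Its log2 fold change against monocytes was 1.56 ± 0.11 (adjusted p = 9.54e-07). Lamp1, the abundant membrane glycoprotein whose promoter window holds 4 cores, reached 2254 and 1836 CPM whereas Ly6C+ monocytes stood at 1125 and 791 CPM and CD43+ monocytes at 810 and 737 (log2 fold change 1.43, adjusted p = 5.81e-05). Its relative Lamp2 stood at 131 and 154 CPM in LysoDCs, 184 and 234 in Ly6C+ monocytes, and 201 and 232 in CD43+ monocytes. Here both LysoDC sums were below all 4 monocyte sums, and the gene fell by 0.40 on the log2 scale (adjusted p = 0.0417). That call was lost under 8 of 14 alternatives, among them DESeq2, the fit with no replicate block and leaving out either LysoDC sum. Cd68, the macrophage member of this glycoprotein family, and Mcoln1, a cation channel, had log2 fold changes of -0.20 and -0.12 and did not pass.

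The hydrolase genes split between strong and weak differences. Tpp1, a tripeptidyl peptidase (chr7:105744811-105752235, - strand), stood at 139 and 213 CPM in LysoDCs, 39.1 and 45.2 in Ly6C+ monocytes, 40.3 and 53.9 in CD43+ monocytes, and 26.6 and 25.2 in DN blood cells. No blood sum reached a LysoDC sum, and its log2 fold change against monocytes was 2.14 ± 0.12 (adjusted p = 2.22e-07). Gaa, the acid glucosidase that degrades glycogen, stood at 69.1 and 70.8 CPM in LysoDCs and between 11.1 and 27.0 CPM in all blood sums (log2 fold change 2.11 ± 0.14, adjusted p = 5.44e-07). Glb1, the acid galactosidase, stood at 44.6 and 40.8 CPM against 13.3 to 23.1 CPM in monocytes (1.53 ± 0.14, adjusted p = 4.65e-06). Smaller rises, from 0.47 to 1.08 on the log2 scale, were called for Gla, Hexa, Asah1, Ppt1, Lipa and Neu1, and those of Gla, Lipa and Neu1 were lost without the LysoDCs of dataset 1. In Lipa, the acid lipase, the LysoDC to monocyte ratio of CPM was 1.45 in dataset 1 and 1.03 in dataset 2. Grn, Man2b1 and Psap, encoding progranulin, a mannosidase and the precursor of saposins, did not pass. Gusb, the glucuronidase, went the other way, with 67.7 and 64.2 CPM in LysoDCs against 110 to 127 CPM in the monocyte sums (log2 fold change -0.66, adjusted p = 0.00128).

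Tfeb, whose product is a transcription factor known to bind E-boxes of this type (chr17:47737030-47792419, + strand), was lower in LysoDCs than in monocytes. It stood at 38.8 and 31.7 CPM in LysoDCs, 59.7 and 36.2 in Ly6C+ monocytes, 109 and 73.6 in CD43+ monocytes, and 58.9 and 36.5 in DN blood cells. Within each dataset LysoDCs had the lowest level and CD43+ monocytes the highest. The log2 fold change against monocytes was -0.70 ± 0.12 (adjusted p = 0.000513). Its relative Mitf, named by the rule for the regulator list, stood at 145 and 153 CPM in LysoDCs against 12.3 to 24.8 CPM in monocytes and 15.2 and 6.12 in DN blood cells (log2 fold change 3.41 against monocytes, adjusted p = 1.02e-05). Fnip2, which encodes a partner of folliculin in nutrient sensing at the lysosome, stood at 52.7 and 63.6 CPM in LysoDCs against 10.8 to 15.0 CPM in monocytes (2.41, adjusted p = 3.63e-07). Of the 9 genes with an E-box core, 7 were higher in LysoDCs than in monocytes and 2, Mcoln1 and Atp6v0d1, did not pass. Both of these hold the longer form, as do Atp6v1a, Atp6v0e and Gla, which were higher. Of the 20 genes whose windows lack the core, 11 were higher, 3 lower and 6 did not pass. All unmatched genes except Atp6v1b2 were higher, and over all genes tested 29.9% were. The share among all genes with the core was not counted, and the difference between these proportions was not tested.

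**Figure D3:**
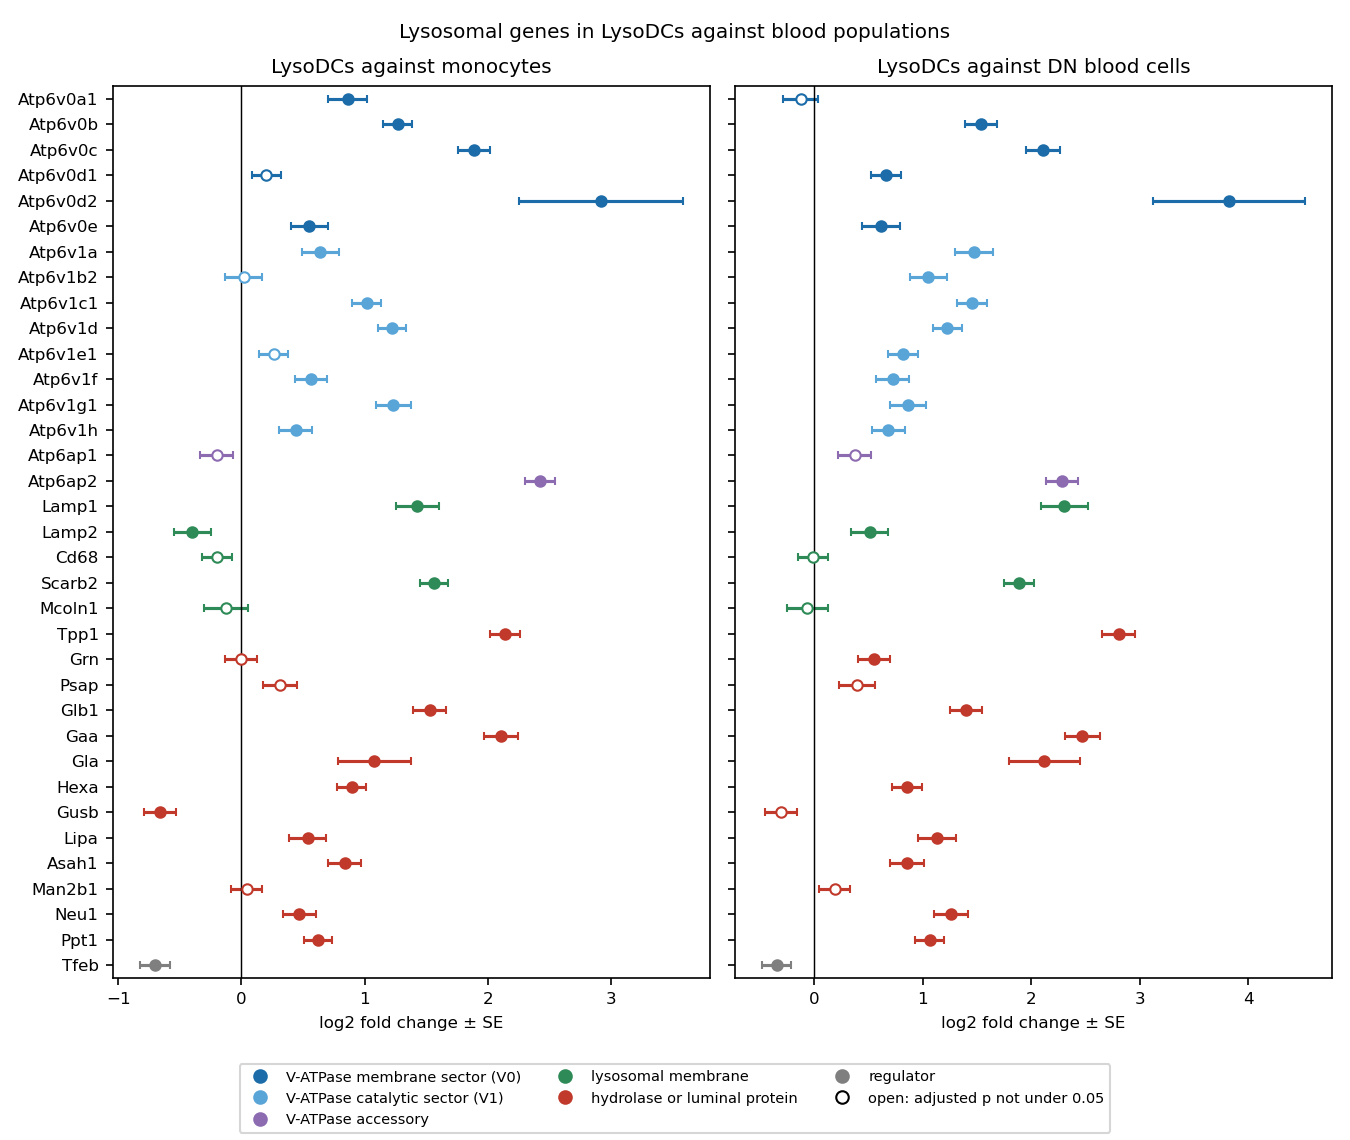
Log2 fold change ± SE (x axis) of the 35 genes in LysoDCs against monocytes (left) and against DN blood cells (right), coloured by role, from 2 sums per population, with open circles where the adjusted p was not under 0.05. Atp6v0d2 lies farthest right in both panels (2.92 and 3.82) with the widest error, and Tfeb lies left of 0 in both (-0.70 and -0.34).

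Against DN blood cells, which share the LysoDC sums with the comparison above, 27 of the 35 genes were higher in LysoDCs, 1 was lower and 7 did not pass, where 26.0% of all genes were higher and 26.1% lower. The median log2 fold change was 0.87 over the 35 genes and -0.03 over all genes. All 8 V1 genes were higher, as were 5 of 6 V0 genes, 10 of 13 hydrolase genes and 3 of 5 membrane genes. The membrane gene Lamp2 (log2 fold change 0.51 ± 0.17, adjusted p = 0.0269) lost its call with total UMI scaling, no replicate block and the background-scaled hashtag call. Its call was also lost without either LysoDC sum and without the DN blood cells of dataset 2. None of the pump, membrane or hydrolase genes was lower in edgeR, at an unadjusted p under 0.05 or in DESeq2. Tpp1 differed by 2.81 ± 0.15, Gaa by 2.47 ± 0.16, Lamp1 by 2.30 ± 0.22, Atp6ap2 by 2.28 ± 0.15, Atp6v0c by 2.11 ± 0.16 and Scarb2 by 1.89 ± 0.14 on the log2 scale, with adjusted p between 1.92e-07 and 1.12e-05. For Lamp1 the CPM ratio was 3.54 in dataset 1 and 6.55 in dataset 2, since DN blood cells stood at 636 and 281 CPM. Atp6v0d1 passed here, with a log2 fold change of 0.66 ± 0.13 (adjusted p = 0.0018), as did Atp6v0d2 with 3.82 ± 0.70 (adjusted p = 0.00307). Atp6v0a1, Atp6ap1, Cd68, Mcoln1, Psap, Gusb and Man2b1 did not pass. Tfeb was the gene called lower (-0.34 ± 0.13, adjusted p = 0.0477), and 12 of 14 alternatives ended that call.

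CD43+ monocytes, the patrolling type, held less of some pump and hydrolase genes than Ly6C+ monocytes, the classical type. Of the 35 genes 3 were higher, 9 lower and 23 did not pass, where 13.5% of all genes were higher and 14.5% lower, and the median log2 fold change was -0.17. Atp6v0c fell by 1.08 ± 0.16 on the log2 scale (adjusted p = 0.000649), from the 747 and 651 CPM of Ly6C+ monocytes to 426 and 340. Asah1, the acid ceramidase, stood at 210 and 185 CPM in Ly6C+ and at 149 and 96.3 CPM in CD43+ monocytes (-0.93 ± 0.17, adjusted p = 0.00232). Psap stood at 3264 and 2480 against 1970 and 1719 CPM (-0.83 ± 0.16, adjusted p = 0.00385). Atp6v1g1 stood at 266 and 290 against 223 and 171 CPM (-0.71 ± 0.17, adjusted p = 0.0114). In each of these 4 genes both CD43+ sums were below both Ly6C+ sums. Atp6v0a1, Glb1, Hexa, Grn and Atp6ap2 were also lower, by 0.64 to 0.92 on the log2 scale. Man2b1 rose from 338 and 254 to 583 and 539 CPM (0.73 ± 0.15, adjusted p = 0.00437) and Lipa from 126 and 142 to 182 and 297 CPM (0.62, adjusted p = 0.0266). Tfeb rose by 0.74 ± 0.14 (adjusted p = 0.00318), while Atp6v0d1 (-0.08) and Atp6v0d2 (1.25 ± 1.36) did not pass. Scaling to total UMIs moved the median of all genes to 0.21, gave 4 higher and 7 lower members, turned the median of the 35 genes to 0.04 and raised the share of higher genes among all calls from 48.3% to 67.4%. The count of lower members was 4 without the CD43+ monocytes of dataset 1 and 5 without the dataset 2 sum of either type, and the higher count was 1 without the Ly6C+ monocytes of dataset 2. The 4 neutrophil markers summed to 82.0 and 64.8 CPM in Ly6C+ monocytes (Cxcr2 at 0 in dataset 1) and to 2.91 and 2.31 CPM in CD43+ monocytes (S100a9 at 0 in both). They stood at 22.0 and 0.452 CPM in DN blood cells, and their part in the blood comparisons was not tested.

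DN blood cells had the lowest summed pump level of the blood populations in each dataset. In 20 of the 35 genes, 10 of them V-ATPase genes, DN blood cells were the lowest of the 4 populations in both datasets. LysoDCs were the highest in both datasets for 22 genes, 12 of them V-ATPase genes. The populations were not ranked in this way over all genes, so these counts have no background to be read against. Against Ly6C+ monocytes 13 genes were lower and 0 higher, where 7.39% of all genes were lower and 7.37% higher, and the median log2 fold change was -0.38. In the higher direction 1 gene had an unadjusted p under 0.05 and DESeq2 called 0. Atp6v1b2, a nucleotide-binding V1 subunit, stood at 184 and 152 CPM in Ly6C+ monocytes and at 95.1 and 49.7 CPM in DN blood cells (-1.26 ± 0.18, adjusted p = 0.00163). Atp6v1a, its catalytic partner, stood at 56.3 and 87.5 against 36.2 and 32.9 CPM (-1.04 ± 0.18, adjusted p = 0.00454). Lamp1 differed by -1.12 ± 0.21, Lamp2 by -0.99 ± 0.17, Grn by -0.88 ± 0.15 and Neu1, the sialidase, by -0.84 ± 0.16, with adjusted p between 0.00395 and 0.00762. Atp6v0d1 fell by 0.50 (adjusted p = 0.0352), and Gla, Atp6v0c, Tpp1, Atp6v1e1, Ppt1 and Scarb2 were also lower. Atp6v0d2 (-0.27 ± 1.26) and Tfeb (0.01 ± 0.13) did not pass. In dataset 2 the labels put each blood population in libraries of its own, so that library and population cannot be told apart there. The count of lower genes was 1 without the Ly6C+ monocytes of dataset 2 and 5 without its DN blood cells. Without the replicate block for dataset it was 7.

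Against CD43+ monocytes, 14 genes were lower in DN blood cells, 3 higher and 18 did not pass, where 16.2% of all genes were lower and 17.1% higher. Atp6v0a1, a membrane subunit of the pump, was the gene in which DN blood cells were highest of the 4 populations in both datasets, with 25.7 and 20.4 CPM against 10.8 and 8.86 CPM in CD43+ monocytes (1.45 ± 0.21, adjusted p = 0.000509). In LysoDCs it stood at 20.1 and 20.3 CPM, so DN blood cells and LysoDCs were nearly level in dataset 2. Atp6v1g1 and Atp6ap2 were the other genes called higher (0.72 and 0.46). Lipa was lower by -0.91 ± 0.18 (adjusted p = 0.00313), Lamp2 by -0.83 ± 0.17 (0.00445), Atp6v1b2 by -0.82 ± 0.18 (0.00558), Neu1 by -0.75 ± 0.16 (0.00575) and Tfeb by -0.73 ± 0.14 (0.00222), with the adjusted p of each in parentheses. Atp6v0d1 fell by 0.42 (adjusted p = 0.0408), and Atp6v0d2 (-1.53 ± 1.18) did not pass. Atp6ap1, Tpp1, Lamp1, Atp6v1a, Gaa, Man2b1, Atp6v1c1 and Atp6v1e1 were also lower. Scaling to total UMIs moved the median of all genes to -0.21, gave 19 lower and 2 higher members and lowered the share of higher genes among all calls from 51.3% to 32.9%. The lower count was 1 without the CD43+ monocytes of dataset 2, 3 without the DN blood cells of dataset 2, 8 without the CD43+ monocytes of dataset 1 and 6 without the replicate block. The higher count was 1 without the CD43+ monocytes of dataset 2. Haemoglobin transcripts summed to 282 CPM in DN blood cells of dataset 1 and to 269 CPM in CD43+ monocytes of dataset 2, against 0.385 to 18.3 CPM in the other blood sums. The part of these transcripts in the results was not tested.

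**Figure D4:**
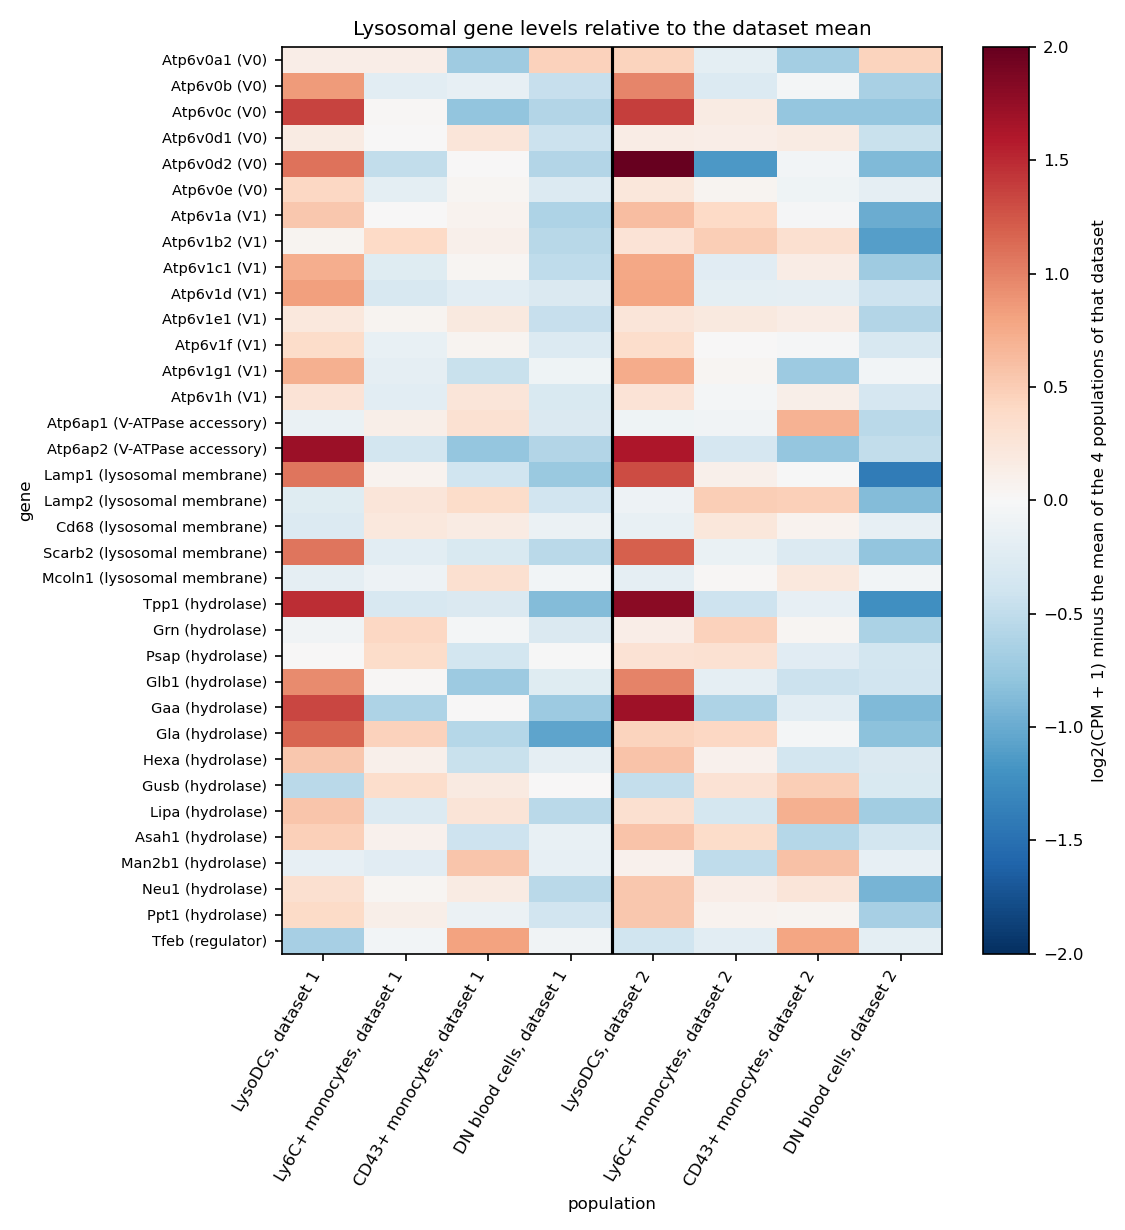
Level of each of the 35 genes in the 8 sums, as log2(CPM + 1) minus the mean of the 4 populations of that dataset (colour scale cut at ±2), with rows grouped by role and a black line between datasets. LysoDC columns are red for most V-ATPase rows in both datasets, DN columns are mostly blue, and the Tfeb row is reddest in CD43+ monocytes.

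Beyond the 35 genes, 4 lists of other lysosomal genes were measured in the same fit. Of 19 other V-ATPase subunits and assembly factors 13 were tested, and against monocytes 7 were higher and 3 lower in LysoDCs. Of all genes 29.9% were higher and 27.4% lower, and the higher shares of the other 3 lists lay near that background. Rogdi, an assembly factor, stood at 263 and 258 CPM in LysoDCs against 17.9 to 49.5 CPM in monocytes (log2 fold change 3.37, adjusted p = 5.4e-06), and Tcirg1, another isoform of the membrane a subunit, rose by 1.37 (adjusted p = 7.12e-06). Atp6v0a2, a further a-subunit isoform, fell by 0.95 (adjusted p = 0.000351). Of 26 other hydrolases and activators 9 were higher and 3 lower. Arsb, a sulfatase, stood at 89.9 and 129 CPM in LysoDCs against 7.70 to 12.1 CPM in monocytes (3.64, adjusted p = 7.43e-08). Pld4, an endolysosomal exonuclease, fell from 441 to 601 CPM in monocytes to 40.5 and 71.2 CPM in LysoDCs (-3.08, adjusted p = 2.56e-05). Of 25 other membrane and delivery genes 9 were higher and 6 lower, led by M6pr, a receptor that delivers hydrolases to lysosomes (1.24, adjusted p = 3.14e-06), and Slc15a3, a transporter of peptides and histidine (1.58, adjusted p = 4.04e-06). Of 21 tested genes for relatives of Tfeb and nutrient sensing 6 were higher and 5 lower, the lower ones including the arginine sensor Slc38a9 (-1.40, adjusted p = 1.66e-05). The list medians on the log2 scale were 0.45, 0.31, 0.16 and 0.05, against 0.01 over all genes.

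In the blood comparisons these lists gave fewer calls, as did all genes, with 6569 calls when LysoDCs were set against monocytes and 3202, 1692 and 3810 here. For CD43+ against Ly6C+ monocytes 2 other pump genes were higher and 4 lower, 4 other hydrolases higher and 3 lower, 5 membrane and delivery genes higher and 3 lower, and 1 regulator gene higher and 3 lower. Npc2, a lumenal cholesterol carrier, fell from 1819 and 1307 CPM to 445 and 327 CPM (-2.22, adjusted p = 7.62e-06). Igf2r, the large mannose phosphate receptor, was at 0 and 0.770 CPM in Ly6C+ and at 12.0 and 22.7 CPM in CD43+ monocytes (adjusted p = 0.00058). For DN blood cells against Ly6C+ monocytes 2 other hydrolases were higher, and 3 pump genes, 4 hydrolases, 4 membrane and delivery genes and 3 regulator genes were lower. Against CD43+ monocytes the lists gave 2 higher and 1 lower, 2 and 7, 4 and 8, and 3 and 3. For LysoDCs against DN blood cells they gave 9 higher and 2 lower, 17 and 3, 9 and 6, and 6 and 3, among 5969 calls over all genes. In this order of lists 13, 26, 25 and 21 genes were tested. The shares of all genes higher and lower were 13.5% and 14.5%, 7.37% and 7.39%, 17.1% and 16.2%, and 26.0% and 26.1%. These follow the order of the 4 comparisons in this paragraph, and the list counts were not tested against them.

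Dataset 1 also held 4 LysoDC subsets and 2 types of cDC2s from the same library, with 1 sum each, so their levels were set side by side with no test. Immature LysoDCs held more of most of the 35 genes than immature cDC2s, which came from the same patches. With a threshold of at least 2-fold, 95% Poisson intervals apart and 20 UMIs or more in the higher sum, 15 genes were higher and 0 lower, where 10.6% of all genes with enough UMIs were higher and 14.9% lower. Summed, the pump genes held 6435 CPM in immature LysoDCs and 3472 in immature cDC2s, the membrane genes 3059 and 952 CPM, and the hydrolase genes 4755 and 1938 CPM. The median CPM ratio was 1.89. The 15 comprised 4 pump, 3 membrane and 8 hydrolase genes. Lamp1 stood at 2360.3 against 618 CPM (ratio 3.82, interval 3.70 to 3.95) and Psap at 2618 against 704 CPM (3.72, 3.61 to 3.83). Tpp1 stood at 144 against 31.9 CPM (4.52, 3.93 to 5.21), Atp6v0b at 1655 against 532 CPM (3.11, 3.00 to 3.22) and Scarb2 at 249 against 80.3 CPM (3.10, 2.83 to 3.40). Atp6v0d2 had 56 UMIs against 3 (15.8, 5.13 to 78.9). Gaa, Atp6ap2, Ppt1, Atp6v0c, Hexa, Glb1, Lipa, Lamp2 and Neu1 had ratios from 2.08 to 2.72. Psap and Lamp2 did not pass upward against monocytes but were above the 2-fold threshold here. V1 genes Atp6v1d, Atp6v1f and Atp6v1h had ratios of 0.962 to 0.965 with intervals that include 1. Man2b1 (0.895) and Tfeb (0.789) were lower in LysoDCs with intervals apart, within 2-fold. Epithelial markers (4 of 4 detected) summed to 400 CPM in immature cDC2s and 2.62 CPM in immature LysoDCs, where Cdh1 was at 0, and their part in the ratios was not tested.

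**Figure D5:**
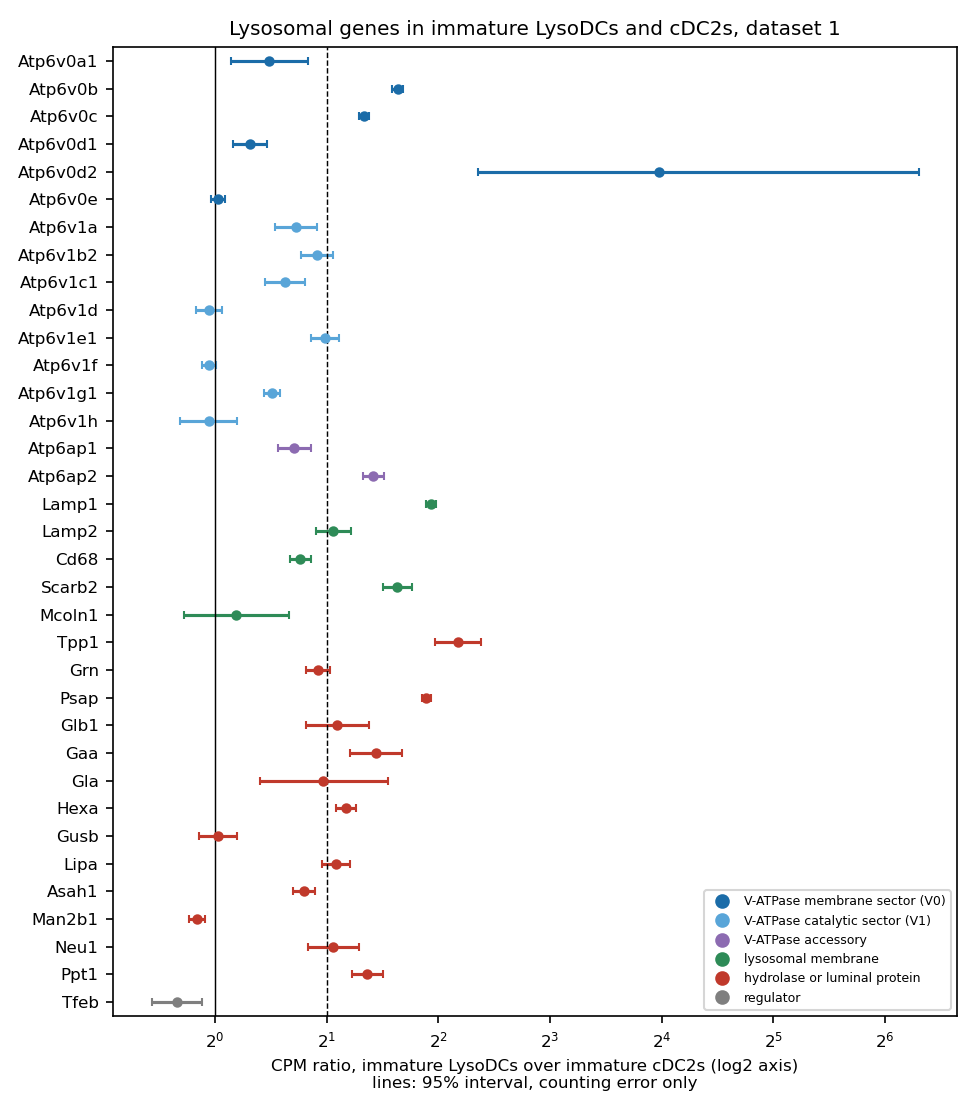
CPM ratio of immature LysoDCs over immature cDC2s of dataset 1 (log2 axis) for the 35 genes, coloured by role, with 95% intervals for counting error only, a solid line at 1 and a dashed line at 2. Of the points, 15 lie at or beyond the dashed line, with Tpp1 at 4.52, Lamp1 at 3.82 and Psap at 3.72, and Tfeb is the lowest at 0.789.

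From follicular to mature LysoDCs the levels moved little. The hydrolase genes summed to 5452, 4755, 4491 and 4238 CPM in follicular, immature, intermediate and mature LysoDCs, and the pump genes to 6395, 6435, 6361 and 6002 CPM. No gene was at least 2-fold higher in mature than in follicular LysoDCs and 1 was at least 2-fold lower, where 3.39% of all genes were higher and 2.03% lower. That gene was Atp6v0d2, with 12.4, 6.38, 3.87 and 5.88 CPM in follicular, immature, intermediate and mature LysoDCs (79 and 36 UMIs at the ends, ratio 0.474, interval 0.311 to 0.712). With stricter cell filters it was no longer past the threshold. It had a UMI in 10.3% of follicular and 3.96% of mature cells, at median depths of 10551 and 13588 UMIs, against 0.309% of immature cDC2s at 7388 UMIs. Thinned to 1000 UMIs per cell, which every cell had, these shares were 0.966%, 0% of 455 cells and 0% of 970 cells. Counts of 0 allow shares of up to 0.659% and 0.309%, and at that depth no change could be read. Without the 2-fold limit, 18 genes were lower and 3 higher in mature cells with intervals apart, and the median ratio was 0.888. The intervals cover counting error only. Neither these counts nor this median were taken over all genes, so they have no background to be read against. The lower genes of the list included Psap (3092 to 2229 CPM), Lamp1 (2589 to 1961 CPM) and Atp6v0b (1781 to 1351 CPM). The 3 higher ones were pump genes, Atp6v1a (66.9 to 89.4 CPM), Atp6v0e (481 to 603 CPM) and Atp6v1f (458 to 545 CPM). Mature against immature LysoDCs and immature against follicular LysoDCs gave 0 genes past 2-fold in either direction. For all genes the shares higher and lower were 2.89% and 0.935% in the first pair and 0.556% and 0.981% in the second. LysoDC markers went from 35356 to 25329 CPM over the same order, and epithelial markers were at 1.57 CPM in follicular and 55.1 CPM in mature cells. Plasma cell markers (3 of 3 detected in each subset) summed to 24.96, 8.65, 6.04 and 95.9 CPM in follicular, immature, intermediate and mature cells. The part of these transcripts in the ratios was not tested.

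Maturing cDC2s differed from immature cDC2s by less than 2-fold in all 35 genes, where 1.42% of all genes were higher and 1.77% lower, and 33 of the 35 had enough UMIs. The median ratio was 1.004. Psap stood at 1070.1 against 704 CPM, and LysoDC markers in the same sums at 4931 against 1135 CPM. The part of those marker-bearing transcripts in the Psap ratio was not tested.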

How the data were processed

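Single-cell libraries were prepared from pools of mice and deposited by the authors as UMI counts per gene and per hashtag, which are raw counts with no normalization per the file headers. Cell Ranger 2.0.0 and mm10 are listed in the submitters' processing notes, whereas the matrix headers name version 6.0.1. Hashtags were called with HTODemux (Seurat 5.3.0, positive quantile 0.99), which gave 8343 and 8516 cells with 1 hashtag of 11878 and 13111 barcodes. Cells with several hashtags (2422 and 4572) were removed as doublets, and no further doublet caller was run. After minima of 1000 UMIs and 500 genes and a ceiling of 10% for mitochondrial UMIs, 7217 and 7470 cells remained. The datasets shared 37 barcodes.

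Counts were summed by population and dataset (8 sums) and tested with edgeR 4.0.16 (TMM scaling, filterByExpr, robust quasi-likelihood test, dataset as replicate block because each dataset is 1 set of pools, Benjamini-Hochberg adjustment over all 11458 genes). Nothing in the labels pairs single animals. The error behind each p-value is the spread between pools that is left after the block removes the shift between datasets. It is pooled over the 4 populations (3 residual degrees of freedom) and drawn towards that of other genes (median prior degrees of freedom 7.65). LysoDCs were set against the mean log level of both monocyte types. Poisson intervals (95%) cover counting error only. The test was tried first on simulated counts drawn with the spread of this same fit and no shift between datasets. That trial therefore cannot show how well the test holds for these pools. Levels are from 3' counts and are not per length, so genes were not ranked against each other by level. Given in full for each tested comparison are up to 6 called members with the largest log2 fold change in size that reached 20 CPM on the higher side in each dataset, plus Atp6v0d1, Atp6v0d2 and Tfeb. Between subsets the rule was 2-fold, intervals apart and 20 UMIs. From each other list it was up to 2 genes per direction with the smallest adjusted p. Further genes were named after their values were seen. The members and lists were chosen with earlier results of these data known. Alternatives were DESeq2 1.42.0, total UMI scaling, no filter, no block, another hashtag call, a stricter cell filter (2000 UMIs, 1000 genes, 5%) and each sum left out.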

Additional observations from a re-analysis of the deposited data

Results flagged for a closer look

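Psap, the saposin precursor, moved in opposite directions between the datasets in DN blood cells against CD43+ monocytes in CPM, which carry no TMM scaling. The CPM ratio was 1.28 in dataset 1 (2520 against 1970 CPM) and 0.902 in dataset 2 (1551 against 1719 CPM). The TMM factors in datasets 1 and 2 were 1.018 and 0.9253 for DN blood cells and 1.1439 and 1.1173 for CD43+ monocytes. With levels divided by these factors, DN blood cells were the higher population in both datasets, so the opposite directions held for CPM only. The fitted log2 fold change, which uses this scaling, was 0.33 ± 0.16. The gene did not pass the test in this comparison, and the difference between the datasets was not tested.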

How the results depend on the processing

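No gene of the 35 that was called in a comparison changed sign under any alternative in that comparison. Of the counts of called genes and of genes past 2-fold, 134 stayed within 1.5 times of the reported value and 26 did not. For LysoDCs against monocytes total UMI scaling gave 5 lower genes, and leaving out 1 sum gave 16 to 23 higher and 2 to 3 lower. For CD43+ against Ly6C+ monocytes the fit with no replicate block gave 1 higher gene, and leaving out 1 sum gave 1 to 3 higher and 4 to 11 lower. For DN blood cells against Ly6C+ monocytes no replicate block gave 7 lower genes, and leaving out 1 sum gave 1 to 15. For DN blood cells against CD43+ monocytes no replicate block gave 6 lower genes, and leaving out 1 sum gave 1 to 12 lower and 1 to 4 higher. For LysoDCs against DN blood cells the lower count was 0 with DESeq2, with no filter, with no replicate block and with the background-scaled hashtag call, and 0 to 1 with 1 sum left out. The gene 2-fold lower in mature than in follicular LysoDCs became 0 under the stricter cell filter.

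Reversals touched genes that had not passed. Atp6v0d1 in CD43+ against Ly6C+ monocytes came to 0.13 on the log2 scale with total UMI scaling and -0.223 to 0.063 with 1 sum left out. Atp6v0d2 in DN blood cells against Ly6C+ monocytes came to 0.10 with DESeq2 and -1.50 to 5.53 with 1 sum left out. Tfeb in DN blood cells against Ly6C+ monocytes came to -0.007 with DESeq2, -0.007 with total UMI scaling, -0.014 with the stricter filter and -0.035 to 0.054 with 1 sum left out. Over all genes, the 1692 calls for DN blood cells against Ly6C+ monocytes became 963 with no replicate block, 310 without the Ly6C+ monocytes of dataset 2 and 688 without its DN blood cells. The 3810 calls against CD43+ monocytes became 1538 without the CD43+ monocytes of dataset 2 and 2293 without its DN blood cells. The 3202 calls for CD43+ against Ly6C+ monocytes became 1538 without the Ly6C+ monocytes of dataset 2 and 1322 without its CD43+ monocytes. The cause was not tested in any of these. Depth limits Atp6v0d2 most, with 0 to 3 UMIs in Ly6C+ monocytes of dataset 2 and immature cDC2s.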
